A study of Mus musculus with 15 samples.

Results

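The sugar transporters described here are 7 genes of the mouse liver, Slc2a1, Slc2a2, Slc2a5, Slc2a8, Slc2a9, Slc45a3 and Slc37a4. They were taken by gene name from a count table of 21702 genes, and all 7 passed the filter on low counts that left 12172 genes for testing. RNA from liver pieces of 15 mice was sequenced, in 5 groups of 3. The mice were wild-type females, C57BL/6 in the labels and C57BL/6N in the study's methods, that were virgin and 8 to 14 weeks old before mating, and each received an adeno-associated virus, AAV8, through the tail vein while non-pregnant. AAV8-null carries no transgene and AAV8-p21 carries the cell cycle inhibitor p21 (gene Cdkn1a) behind the TBG promoter, which is active in hepatocytes. Mice with AAV8-null were taken non-pregnant (NP) or on days post-coitum (dpc) 8 or 16, and mice with AAV8-p21 on the same 2 days of pregnancy. Their livers are called null and p21 livers, and the NP livers are null livers too. No NP group with AAV8-p21 was analysed here.

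Sugars cross membranes through carrier proteins, and the liver both takes up glucose and releases it. The GLUT family, encoded by the Slc2a genes, carries sugars and related molecules down their gradients, and its members differ in cargo and in the membrane they occupy. GLUT2 (Slc2a2) is the main glucose carrier of the hepatocyte surface, and the glucose 6-phosphate carrier of the endoplasmic reticulum (Slc37a4) feeds glucose-6-phosphatase, the last step of hepatic glucose release.

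On the GRCm38 build with GENCODE vM21, Slc2a1 lies at chr4:119108711-119137983 (+), Slc2a2 at chr3:28697903-28731359 (+), Slc2a5 at chr4:150119283-150144169 (+) and Slc2a8 at chr2:32972990-32982083 (-). Slc2a9 lies at chr5:38349273-38503143 (-), Slc45a3 at chr1:131962967-131982969 (+) and Slc37a4 at chr9:44396852-44402968 (+). None shares exon bases with another protein-coding gene. Slc2a1 shares 105 exon bases with the antisense gene Gm12868 and Slc45a3 shares 481 with the transcript Gm29103 on its own strand. Whether counting used the strand is not given in the sources used here.

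Slc2a9 was the member that passed the test between stages, and Slc45a3 separated the viruses at both stages, so the 250 bases before their RefSeq transcript starts (build GRCm38.p6) are shown, 5′ to 3′ on the gene's strand and outside every annotated exon. Slc2a9 has 1 such window, at chr5:38483386-38483635 (-), which lies wholly within the GENCODE gene, in sequence annotated there as intron. Slc45a3 has 2, an outer window at chr1:131962665-131962914 (+) and an inner one at chr1:131970359-131970608 (+). The inner window too lies wholly within its gene, in annotated intron. Capitals mark the letters TATAAA, the sequence of a TATA box.
Slc2a9 window: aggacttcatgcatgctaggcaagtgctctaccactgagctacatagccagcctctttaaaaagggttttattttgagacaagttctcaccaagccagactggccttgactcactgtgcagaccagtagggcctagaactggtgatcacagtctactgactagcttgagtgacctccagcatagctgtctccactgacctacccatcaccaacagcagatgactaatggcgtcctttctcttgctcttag
Slc45a3 outer window: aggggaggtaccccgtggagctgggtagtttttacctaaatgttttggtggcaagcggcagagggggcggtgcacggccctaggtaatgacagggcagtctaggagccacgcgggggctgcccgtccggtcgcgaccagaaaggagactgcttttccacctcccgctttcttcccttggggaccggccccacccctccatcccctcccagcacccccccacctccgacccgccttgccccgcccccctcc
Slc45a3 inner window: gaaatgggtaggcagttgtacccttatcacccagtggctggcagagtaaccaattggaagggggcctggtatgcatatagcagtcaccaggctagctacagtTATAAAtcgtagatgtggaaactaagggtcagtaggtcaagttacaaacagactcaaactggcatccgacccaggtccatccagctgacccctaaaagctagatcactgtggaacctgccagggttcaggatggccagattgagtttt

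Windows from 250 bases before to 50 bases after each RefSeq start were searched on both strands for 3 motifs, and the 7 members have 10 of them. TATAAA was found in 3 of the 10 windows, against 13.6% of 32851 windows of the same length over all genes. In the inner Slc45a3 window it began 148 bases before the start, in 1 of the 3 Slc37a4 windows 32 bases before it, and in Slc2a1 28 bases after it. CACGTG, the E-box letters, occurred in 0 of the 10 windows and in 7.15% of all windows. The palindromic motif of the hepatocyte factor HNF1 occurred in 0 of the 10 and in 0.00913% of all. These counts describe letters in a window and say nothing of binding.

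Each library held between 12280709 and 17615185 counts. Albumin (Alb), the main secreted protein of hepatocytes, took 7.90% to 12.9% of the counts in the NP and 8 dpc libraries and 20.5% to 27.8% in the 16 dpc libraries. Levels are therefore given as CPM, the count scaled to a library size corrected by TMM, a method that limits the pull of very abundant genes. Cdkn1a ranged from 347 to 648 CPM in p21 livers at 8 dpc and from 815 to 1664 CPM at 16 dpc, against 3.29 to 127 CPM over the 9 AAV8-null libraries, so no p21 library overlapped a null library. Cdkn1a itself was not called between the viruses by edgeR, at a 14.2-fold higher level at 16 dpc (adjusted p = 0.0619) and 21.1-fold at 8 dpc (adjusted p = 0.0873). Summed hepatocyte markers, of which Alb made up most, were between 75791 and 435540 CPM and summed neutrophil markers between 0.548 and 29.1 CPM. Sums of lymphocyte markers stayed between 1.83 and 5.47 CPM. These are whole pieces of liver, so fewer cells of a type and less RNA per cell cannot be told apart. A gene is called changed where the adjusted p of edgeR's quasi-likelihood test, over all 12172 genes, is under 0.05.

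The level of a transcript can be compared between genes only per length, as CPM per kb of exon. On that scale the mean over the 15 livers was 52.9 for Slc37a4 and 43.1 for Slc2a2, above 94.1% and 93% of the genes tested. Slc45a3 followed at 10.9, Slc2a9 at 6.45, Slc2a8 at 3.86, Slc2a1 at 2.21 and Slc2a5 at 0.770 CPM per kb. Slc2a5 was thus the scarcest member, with 22.8% of the genes tested below it and with 14 to 82 counts a library. Of the neighbours in this order, Slc37a4 and Slc2a2 changed places in 3 of 15 livers and Slc45a3 and Slc2a9 in 4, whereas the other pairs of members kept their order in all 15. The spread over livers ranged from 1.59-fold between the lowest and the highest liver for Slc2a8 to 6.58-fold for Slc45a3, both in CPM.

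**Figure D1:**
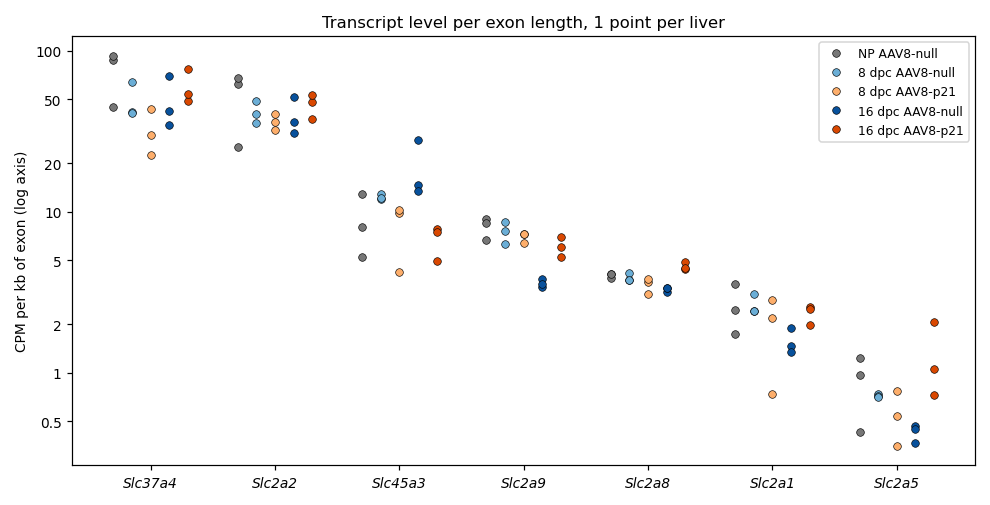
Level of each sugar transporter per exon length, on a log axis in CPM per kb of exon, with 1 point for each of the 15 livers coloured by group. Slc37a4 and Slc2a2 overlap at the top, between 22.4 and 93.2, and Slc2a5 lies lowest, between 0.352 and 2.05.

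Slc2a9 encodes GLUT9, which carries urate, a product of purine breakdown, into hepatocytes, where uricase of the mouse degrades it further. Its level was 33.9, 45.9 and 43.1 CPM in the NP livers and 38.4, 32.3 and 44.0 CPM in the null livers at 8 dpc. At 16 dpc the null livers held 19.4, 17.4 and 18.2 CPM. The 3 null livers at 16 dpc were thus the lowest of all 15 and overlapped no other group.

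The first comparison asked what late pregnancy changes in control livers. Slc2a9 fell by 1.16 on the log2 scale from NP to 16 dpc (SE 0.18, 95% interval -1.54 to -0.78, 3 against 3 livers), from a mean of 41.0 ± 6.27 to 18.3 ± 1.02 CPM (SD, n = 3 each), with an edgeR adjusted p of 0.00133. From 8 dpc to 16 dpc it fell by 1.06 (SE 0.18, edgeR adjusted p = 0.00298). Both comparisons use the same 16 dpc libraries. Slc2a9 was the 1 of 7 members called in each, where 6.52% and 6.87% of all genes were called. In the first, Slc2a8, Slc2a9 and Slc45a3 did not overlap (24.6% of all genes) and Slc2a5, Slc2a9 and Slc45a3 had an unadjusted p under 0.05 (21.2% of all genes). In the second, 5 members did not overlap, all but Slc2a2 and Slc37a4 (25.4% of all genes), and Slc2a9 had an unadjusted p under 0.05 (22.7% of all genes). It was also the 1 member called for any difference among the 5 groups (edgeR adjusted p = 0.00521), where 9.27% of all genes were called, and 4 members had an unadjusted p under 0.05 (24.7% of all genes). The call against NP held under each alternative and without each library, with log2 differences between -1.84 and -1.07.

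In p21 livers Slc2a9 was at 37.1, 36.9 and 32.3 CPM at 8 dpc, then 35.5, 30.8 and 26.4 CPM at 16 dpc. The p21 livers at 16 dpc all lay above the 3 null livers of that stage, and 2 of the 3 lay below every AAV8-p21 liver at 8 dpc. The log2 difference between the viruses at 16 dpc was 0.75 (SE 0.18, 95% interval 0.38 to 1.13), a 1.69-fold higher level, with an edgeR adjusted p of 0.124. Slc2a9 was therefore not called by the edgeR test. It was called by DESeq2's Wald test (0.76, adjusted p = 0.0108) and by limma voom with sample weights (0.78, adjusted p = 0.034). Between 8 dpc and 16 dpc within AAV8-p21 the log2 difference was -0.20 (95% interval -0.57 to 0.17, edgeR adjusted p = 0.638). The difference between the stages' virus effects, an interaction term, was 0.86 for Slc2a9 (SE 0.25, unadjusted p = 0.00334, edgeR adjusted p = 1).

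The ratio of Slc2a2 to Slc2a9 per kb needs no scaling between libraries. It was 8.65 to 15.1 in null livers at 16 dpc, against 3.80 to 7.97 in NP livers and 5.34 to 5.67 in null livers at 8 dpc. In p21 livers it was 4.43 to 6.35 at 8 dpc and 6.92 to 8.81 at 16 dpc, so the 2 groups at 16 dpc overlapped in this ratio.

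Markers of both zones of hepatocytes were lower in null livers at 16 dpc than in NP livers. Pericentral markers, of cells around the central vein, summed to 9853 to 12525 CPM in NP livers, 4982 to 6910 CPM in null livers at 16 dpc and 7249 to 8649.9 CPM in p21 livers at 16 dpc. In p21 livers at 8 dpc, where Slc2a9 was at 32.3 to 37.1 CPM, they summed to 6133 to 7484 CPM. Cyp2e1 made up most of the mean sum, with a mean of 8178 CPM in NP livers and 3717 CPM in null livers at 16 dpc. Of the 8 markers, all tested, 7 were lower in null livers at 16 dpc than in NP livers, of which 1 was called. The 1 that was higher was also called, where 6.52% of all genes were called. Between the viruses at 16 dpc, 7 were higher in p21 livers and 0 were called, where 0.0739% of all genes were called. Periportal markers, of cells around the portal vein, summed to 5377 to 5968 CPM in NP livers, 4043 to 4975 CPM in null livers and 4562 to 5254 CPM in p21 livers at 16 dpc. Of the 7, all tested, 6 were lower in null livers at 16 dpc than in NP livers, of which 2 were called (6.52% of all genes). Between the viruses at that stage 0 were called (0.0739% of all genes). None of these markers was at 0 in any library. Their part in the Slc2a9 difference was not tested.

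**Figure D2:**
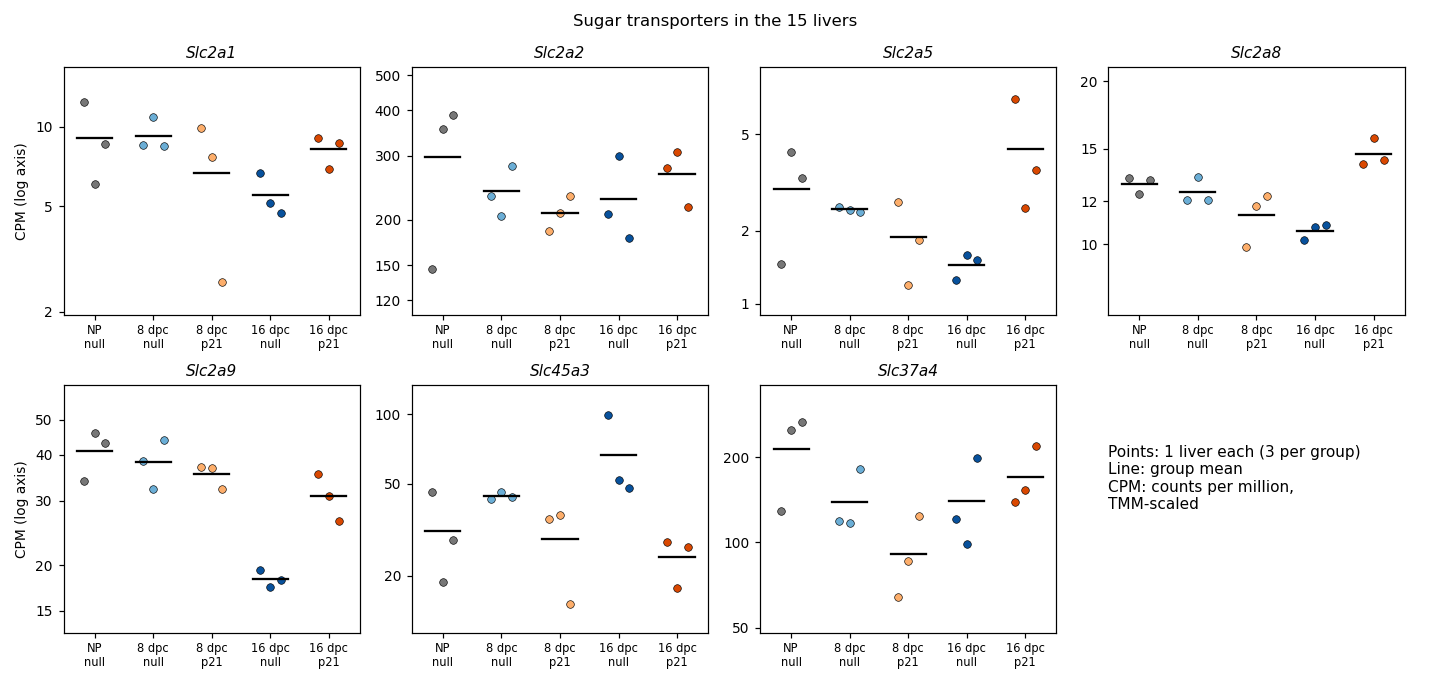
CPM of each of the 7 sugar transporters by group, on log axes, with 1 point for each liver and a line at the group mean of 3. Slc2a9 sits between 17.4 and 19.4 in the null livers at 16 dpc, below every other liver, and Slc45a3 is lower in AAV8-p21 than in null livers at both stages.

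The list of other urate genes held 8, of which 7 were tested and 5 were called between NP and 16 dpc null livers, 4 lower and 1 higher, where 6.52% of all genes were called. The lower ones were 3 organic anion carriers of the Slc17 family and Xdh, the enzyme that makes urate. Slc17a1 was at 13.7, 16.1 and 12.6 CPM in NP livers and at 4.37, 6.08 and 4.54 CPM in null livers at 16 dpc (a 2.83-fold lower level, edgeR adjusted p = 0.000407). Slc17a2 had a mean of 206 CPM in NP livers and 47.9 CPM at 16 dpc (log2 difference -2.10, edgeR adjusted p = 0.000255). The 3 livers at 16 dpc lay below all NP livers for both genes.

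Slc17a3 fell by 1.40 on the log2 scale (edgeR adjusted p = 0.0221) and Xdh by 0.94 (edgeR adjusted p = 0.0261). Abcg2, which exports urate, rose by 0.80 (edgeR adjusted p = 0.0421). The same 5 genes were called between 8 dpc and 16 dpc in null livers, in the same directions, where 6.87% of all genes were called. That comparison uses the same 16 dpc libraries. Uox, the uricase itself, was at 1638 CPM in NP livers and 2049 CPM at 16 dpc and was not called (edgeR adjusted p = 0.506).

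Between 8 dpc and 16 dpc in p21 livers, which share no library with the AAV8-null comparison, 3 of the 7 urate genes were called, where 3.32% of all genes were called. Slc17a1 fell by 1.71, Slc17a2 fell by 1.98 and Abcg2 rose by 0.89 on the log2 scale. Slc2a9 was not among the called genes there. Between the viruses at 16 dpc 0 of the 7 were called, where 0.0739% of all genes were called. Slc17a2 was at 42.3 ± 8.37 CPM in p21 livers and 47.9 ± 12.8 CPM in null livers (SD, n = 3 each), a log2 difference of -0.18 with a 95% interval of -0.70 to 0.33.

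**Figure D3:**
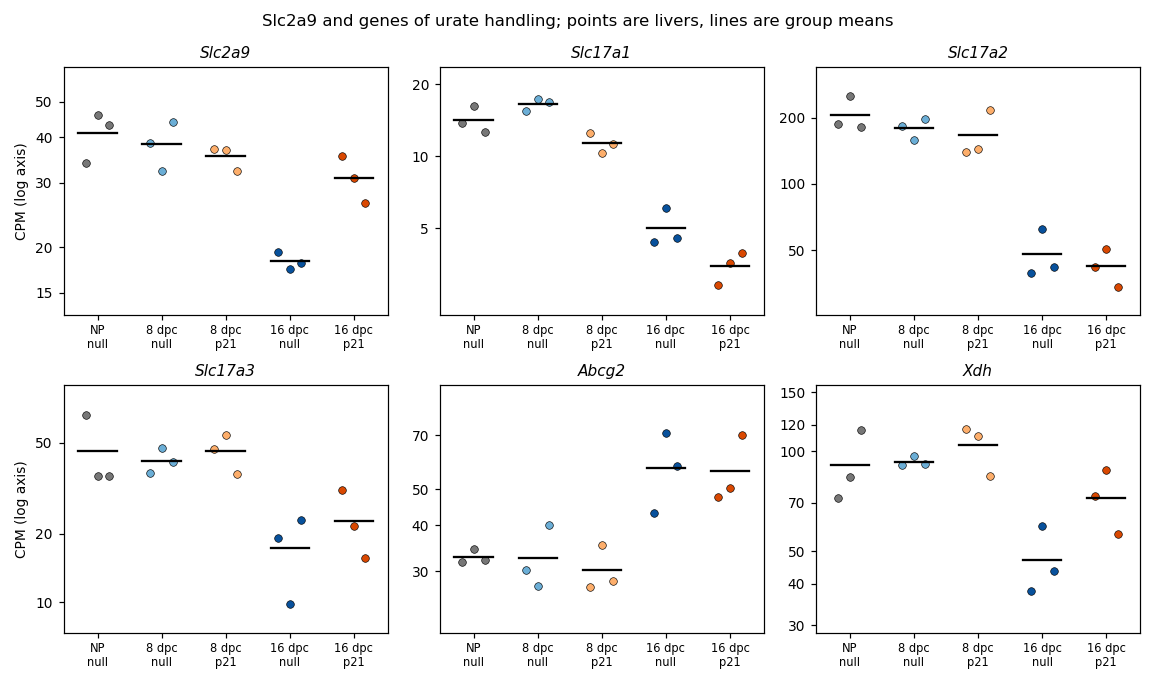
CPM of Slc2a9 and 5 genes of urate handling by group, on log axes, with 1 point for each liver and a line at the group mean of 3. Slc17a1, Slc17a2 and Slc17a3 have lower means at 16 dpc than at 8 dpc with either virus, Abcg2 has higher ones, and Slc2a9 is lowest in null livers at 16 dpc, with a mean of 18.3.

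Slc45a3 encodes a proton-coupled carrier of sucrose and other sugars. It was at 46.1, 18.7 and 28.5 CPM in NP livers, at 42.8, 46.0 and 43.6 CPM in null livers at 8 dpc and, in those of 16 dpc, 99.0, 52.0 and 48.1 CPM. p21 livers held 35.1, 36.6 and 15.1 CPM at 8 dpc and 28.0, 17.7 and 26.5 CPM at 16 dpc. The p21 livers lay below all null livers of their own stage at both stages.

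At 16 dpc the Slc45a3 mean was 24.1 ± 5.55 CPM in p21 livers and 66.4 ± 28.3 CPM in null livers (SD, n = 3 each), a log2 difference of -1.46 (SE 0.38, 95% interval -2.28 to -0.65). The edgeR adjusted p was 0.178, so this 2.76-fold lower level was not called. DESeq2's Wald test called it (-1.46, adjusted p = 0.0221) and so did limma voom (-1.58, adjusted p = 0.0398). At 8 dpc the log2 difference was -0.61 (95% interval -1.41 to 0.19, edgeR adjusted p = 1), and the difference between the stages was not shown (interaction -0.86, unadjusted p = 0.127). From NP to 16 dpc in null livers Slc45a3 was 1.09 higher on the log2 scale (SE 0.38, edgeR adjusted p = 0.105), and was called by DESeq2 (1.10, adjusted p = 0.0476) and limma voom (1.47, adjusted p = 0.00632). Without the first NP liver, whose 46.1 CPM is the highest of that group, this value was 1.49 and was called (edgeR adjusted p = 0.0419). Without the first null liver at 16 dpc, whose 99.0 CPM is the highest of all, it was 0.69 (edgeR adjusted p = 0.315).

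Neutrophil markers separated the viruses in the same direction as Slc45a3. They summed to 4.70 to 14.5 CPM in null and 1.997 to 3.26 CPM in p21 livers at 8 dpc, and to 5.50 to 29.1 CPM in null and 2.30 to 4.29 CPM in p21 livers at 16 dpc. Of the 5 markers 3 were tested, all 3 were lower in p21 livers at both stages and 0 were called. Of all genes 0.0246% were called between the viruses at 8 dpc and 0.0739% at 16 dpc. All 3 markers were called higher in null livers at 16 dpc than in NP livers, where 6.52% of all genes were called. The sum in NP livers was 0.548 to 1.73 CPM. Ngp was at 0 in 4 libraries and Camp in 10. Their part in the Slc45a3 values was not tested.

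The Slc45a3 level went with a measure of the molecular clock. This measure takes the average log2 CPM of Clock, Arntl and Npas2, which peak together. From it is subtracted the average for Ciart, Per3, Nr1d2, Nr1d1, Tef and Dbp, which peak in the opposite phase. It was 0.39, -3.97 and -4.05 in the NP livers, 1.16, 1.28 and -1.04 in null livers at 8 dpc and 1.82, -1.24 and 1.504 at 16 dpc. In p21 livers it was 2.66, 2.27 and -2.88 at 8 dpc and -4.45, -4.33 and -2.58 at 16 dpc. The AAV8-p21 and null livers at 16 dpc thus did not overlap in it, and the hour of sampling is not given in the sources used here.

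In the 6 livers with a clock measure under -2, a limit set after the values were seen, Slc45a3 lay between 15.1 and 28.5 CPM. In the other 9 it lay between 35.1 and 99.0 CPM, with no overlap, against 0.23% of all genes, the clock genes included. The first NP liver and the third AAV8-p21 liver at 8 dpc, which stood apart from their own groups in Slc45a3, also stood apart in the clock measure. The first null liver at 16 dpc (99.0 CPM) stood apart in Slc45a3 alone, and the second null liver at 16 dpc and the third at 8 dpc stood apart in the clock measure alone. With the clock measure as a covariate, an alternative added after the data were seen, the Slc45a3 log2 difference between the viruses at 16 dpc was -0.55 (edgeR adjusted p = 0.546). The interaction of Slc45a3 was then 0.21 in place of -0.86. The difference in Slc45a3 between viruses at 16 dpc and the difference in clock measure cannot be told apart. The same limit applies to the virus differences of the other 6 members at 16 dpc. The other 6 members overlapped between the 6 and the 9 livers. Slc2a9 lay between 26.4 and 45.9 CPM in the 6 and between 17.4 and 44.0 CPM in the 9, and its fall from NP to 16 dpc was 1.07 on the log2 scale with the covariate (edgeR adjusted p = 0.0111).

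**Figure D4:**
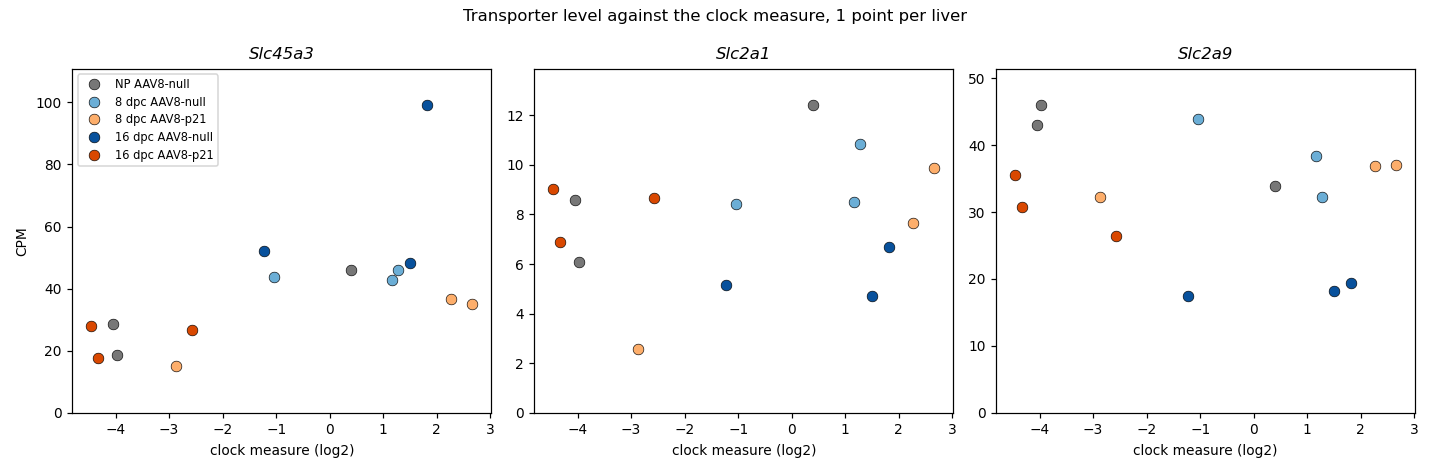
CPM of Slc45a3, Slc2a1 and Slc2a9 on the vertical axes against the clock measure in log2 units on the horizontal axes, with 1 point for each of the 15 livers coloured by group. Slc45a3 is 15.1 to 28.5 CPM in the 6 livers under -2 and 35.1 to 99.0 CPM in the others, whereas Slc2a1 and Slc2a9 overlap.

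Slc2a2, the GLUT2 gene, was at 146, 356 and 389 CPM in NP livers, the widest spread of any group. Null livers held 232, 204 and 282 CPM at 8 dpc and 207, 299 and 178 CPM at 16 dpc. p21 livers held 186, 209 and 232 CPM at 8 dpc and 278, 307 and 217 CPM at 16 dpc. All groups overlapped the NP group. Slc2a2 was not called in any comparison by edgeR with TMM scaling. Its log2 difference between the viruses at 16 dpc was 0.23 with a 95% interval of -0.43 to 0.89, and -0.49 with the clock measure as a covariate. From NP to 16 dpc in null livers it was -0.38 (95% interval -1.04 to 0.28, edgeR adjusted p = 0.52), and 0.22 with that covariate.

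Slc37a4, the glucose 6-phosphate carrier, was at 129, 249 and 266 CPM in NP livers, at 119, 117 and 182 CPM in null livers at 8 dpc and, in those of 16 dpc, 121, 98.6 and 199 CPM. In p21 livers the values were 63.9, 86.2 and 124 CPM at 8 dpc and, later, 139, 154 and 219 CPM at 16 dpc. The p21 livers at 16 dpc all lay above those at 8 dpc. This log2 difference was 0.90 (SE 0.34, 95% interval 0.17 to 1.63, edgeR adjusted p = 0.188) and was not called. The first NP liver was the lowest of its group for both Slc37a4 and Slc2a2. Its partner enzyme G6pc, the glucose-6-phosphatase of the liver, was at 392.7 CPM in NP livers and 669 CPM in null livers at 16 dpc (log2 difference 0.77, edgeR adjusted p = 0.248).

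The ratio of Slc2a2 to Slc37a4 per kb was 0.562 to 0.725 in NP livers and 0.443 to 1.502 in null livers at 16 dpc. In null livers at 8 dpc it was 0.767 to 0.971. In p21 livers it was 0.931 to 1.44 at 8 dpc and 0.491 to 0.997 at 16 dpc. The 2 most abundant members therefore did not keep a fixed ratio, and null livers at 16 dpc spanned more than any other group.

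Slc2a1 encodes GLUT1, the carrier of basal glucose uptake in many cell types. It was at 12.4, 6.09 and 8.60 CPM in NP livers, at 8.50, 10.8 and 8.43 CPM in null livers at 8 dpc and, in those of 16 dpc, 6.69, 5.17 and 4.72 CPM. p21 livers held 9.87, 7.65 and 2.59 CPM at 8 dpc and 9.03, 6.91 and 8.67 CPM at 16 dpc. The null livers at 16 dpc lay below all null livers at 8 dpc and below all p21 livers at 16 dpc. Neither difference was called, at -0.74 (edgeR adjusted p = 0.26) and 0.57 (edgeR adjusted p = 0.647) on the log2 scale. With the clock measure as a covariate the second was 1.49 (edgeR adjusted p = 0.154), and the interaction of Slc2a1 was 2.15 in place of 1.02 (edgeR adjusted p = 0.798).

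A liver piece also holds bile duct cells. Their 5 marker genes, of which Spp1 makes up most of the sum (mean 11.3 CPM in null and 30.9 CPM in p21 livers at 16 dpc), summed to 8.41 to 17.3 CPM in null livers and 19.6 to 43.0 CPM in p21 livers at 16 dpc, and to 19.7 to 31.4 CPM in NP livers. At 8 dpc they summed to 17.998 to 26.8 CPM in null and 36.0 to 53.3 CPM in p21 livers, where Slc2a1 was not higher. Of the 5, 4 were higher in p21 livers at 16 dpc and 0 were called (0.0739% of all genes), and Epcam was at 0 in 1 of 15 libraries. Summed erythroid markers overlapped, at 109.7 to 170.1 CPM in AAV8-null and 125 to 168 CPM in p21 livers at 16 dpc. The part of other cell types in the Slc2a1 values was not tested.

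Slc2a8 encodes GLUT8, a hexose carrier of inner membranes. It was the steadiest member, with 13.2, 12.4 and 13.1 CPM in NP livers, 12.05, 13.3 and 12.1 CPM in null livers at 8 dpc and 10.2, 10.7 and 10.9 CPM at 16 dpc. In p21 livers the values were 9.87, 11.8 and 12.26 CPM at 8 dpc and, later, 14.1, 15.7 and 14.3 CPM at 16 dpc. The p21 livers at 16 dpc were thus the highest of all 15. Against null livers at 16 dpc the log2 difference was 0.47 (SE 0.15, 95% interval 0.15 to 0.79), a 1.39-fold higher level, with an edgeR adjusted p of 0.282. The other groups lay within 9.87 to 13.3 CPM.

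Slc2a5 encodes GLUT5, the fructose carrier. It was at 1.45, 4.203 and 3.29 CPM in NP livers, at 2.50, 2.44 and 2.39 CPM in null livers at 8 dpc and, in those of 16 dpc, 1.25, 1.58 and 1.51 CPM. p21 livers held 2.62, 1.1985 and 1.82 CPM at 8 dpc and 6.98, 2.47 and 3.57 CPM at 16 dpc. The p21 livers at 16 dpc lay above the null livers of that stage, and 1 liver, at 6.98 CPM, was the highest of all. The log2 difference was 1.57 (SE 0.44, 95% interval 0.62 to 2.52, edgeR adjusted p = 0.232). At this level counting error alone is wide, since the lowest library held 14 counts, with an exact Poisson 95% interval of 7.65 to 23.5.

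Over the 7 members, 0 were called between the viruses at 16 dpc by edgeR, where 0.0739% of all genes were called. Slc2a1, Slc2a5, Slc2a8 and Slc2a9 lay above and Slc45a3 below without overlap, so 5 of 7 members did not overlap, against 13.7% of all genes. In an exact two-sided permutation test each of the 5 had p = 0.1, the smallest that 3 against 3 livers allow. At an unadjusted edgeR p under 0.05 there were 4 members, Slc2a5, Slc2a8, Slc2a9 and Slc45a3, against 9.77% of all genes. The members were chosen with earlier results of these data known, so these shares do not test the set. The study had already reported lower Slc45a3 in AAV8-p21 livers at 16 dpc. The p21 and null livers of that stage also did not overlap in the clock measure. The median log2 difference of the 7 was 0.47, against 0.00 for all genes tested. Slc2a9 and Slc45a3 were the 2 members that DESeq2 and limma voom called, where these tools called 1.17% and 0.961% of all genes.

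At 8 dpc the same comparison gave 0 of 7 members called by edgeR, where 0.0246% of all genes were called, 0 at an unadjusted p under 0.05 (5.18% of all genes), and 0 by DESeq2 and limma voom, which called 0.255% and 0.863% of all genes. All 7 log2 differences of the edgeR model were below 0, from -0.61 for Slc37a4 and Slc45a3 to -0.11 for Slc2a9. Limma voom gave 0.0066 for Slc2a9. Slc45a3 was the 1 member without overlap, against 10% of all genes. The interaction of virus and stage gave 0 of 7 members called and 0% of all genes. At an unadjusted p under 0.05 edgeR gave Slc2a5 (log2 1.94), Slc2a8 (log2 0.61) and Slc2a9 (log2 0.86), against 3.09% of all genes, and 0 members were called by DESeq2 or limma voom.

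**Figure D5:**
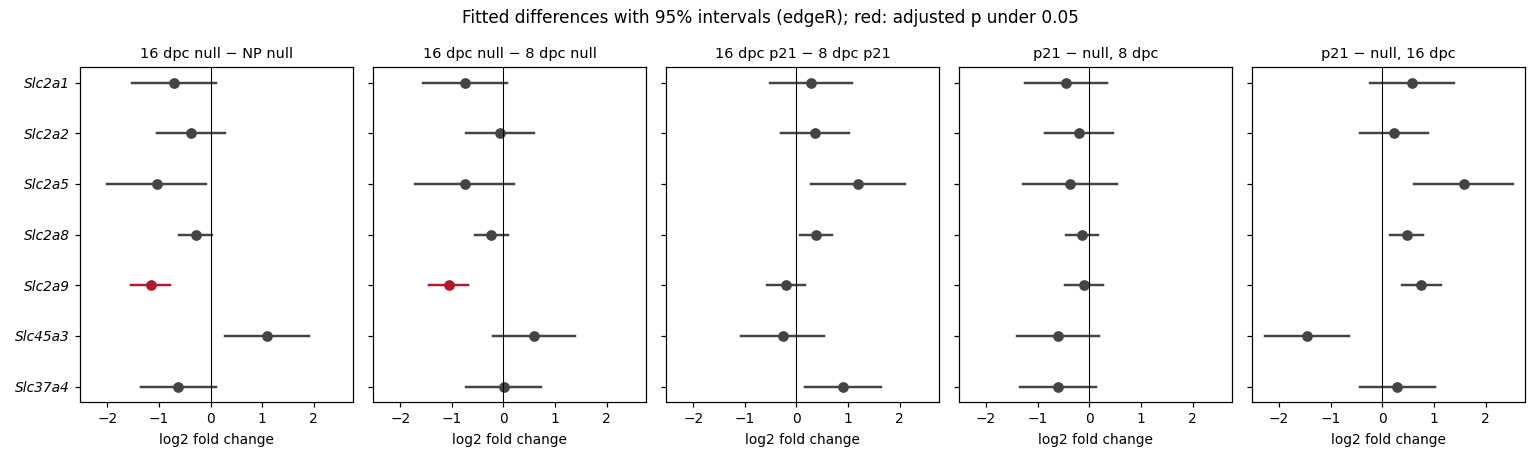
Log2 difference of each sugar transporter in 5 comparisons, with points for edgeR's fitted values, bars for 95% intervals and red for an adjusted p under 0.05. Red appears for Slc2a9 between null livers at 16 dpc and NP (-1.16) and between 16 dpc and 8 dpc (-1.06).

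Between NP and 8 dpc null livers 0 of 7 members were called by edgeR and 0% of all genes, though 803 genes (6.6%) had an unadjusted p under 0.05, none of them a member. All 7 members overlapped between these groups, where 10.2% of all genes did not, and DESeq2 called 0 members (0.575% of all genes) while limma voom called 3 (15.2% of all genes). The 3 were Slc2a2 (-0.65), Slc45a3 (0.96) and Slc37a4 (-1.01). Between 8 dpc and 16 dpc p21 livers edgeR called 0 of 7, where 3.32% of all genes were called, and between NP and 16 dpc p21 livers 0 of 7, where 3.81% were called. DESeq2 called 0 members in both (6.69% and 6.67% of all genes). Limma voom called Slc2a8 and Slc37a4 in the former (14.9% of all genes) and Slc2a9 and Slc37a4 in the latter (19% of all genes). At an unadjusted p under 0.05 the former had Slc2a5, Slc2a8 and Slc37a4 (16.4% of all genes) and the latter had Slc2a9 (16% of all genes). Slc2a8 and Slc37a4 did not overlap in the former (22.9% of all genes), nor Slc2a8 in the latter (20.2% of all genes).

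The scaling between libraries bears on every comparison of 16 dpc with an earlier stage. Alb takes more of the 16 dpc libraries, and its part in this was not tested. With total counts in place of TMM, the median log2 difference of all genes moved to -0.70 between NP and 16 dpc null livers and to -0.59 between 8 dpc and 16 dpc p21 livers. Under that scaling 6 of 7 members were called between NP and 16 dpc, all lower, where 6150 of 12172 genes (50.5%) were called, and Slc2a9 was at -1.84. Slc45a3, the 1 member above 0, was at 0.42.

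Other carriers of the same families were mostly scarce. Of 7 other GLUT genes 1 passed the filter, Slc2a13, the myo-inositol carrier, and it was not called in any comparison. Slc2a3, Slc2a4 and Slc2a6 reached at most 16, 11 and 12 counts, and Slc2a7 had 0 counts in all 15 libraries. Of 8 genes for sodium-coupled sugar carriers and the sugar exporter Slc50a1, 2 were tested. Slc5a1, the intestinal glucose carrier SGLT1, had 15, 14 and 16 counts in NP livers and 3, 4 and 1 in null livers at 16 dpc, and it was called lower (log2 difference -2.07, edgeR adjusted p = 0.0295).

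Slc37a1, a relative of Slc37a4, was called higher at 16 dpc. It was at 1.18, 1.46 and 0.699 CPM in NP livers, at 6.87, 5.60 and 2.29 CPM in null livers at 8 dpc and, in those of 16 dpc, 18.9, 6.33 and 54.9 CPM. p21 livers held 4.54, 7.70 and 7.07 CPM at 8 dpc and 20.6, 11.6 and 14.3 CPM at 16 dpc. All livers at 16 dpc lay above all NP livers, and the null livers of that stage spanned 6.33 to 54.9 CPM. The log2 difference from NP was 4.56 in null livers (SE 0.69, edgeR adjusted p = 0.00126) and 3.78 in p21 livers (SE 0.68, edgeR adjusted p = 0.00559), which use the same NP libraries. Slc37a4 was not called by edgeR with TMM scaling in either comparison, though limma voom called it lower in both.

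The genes whose pattern over the 15 livers was most like each member's were found by the root mean square difference of log2 CPM, each gene centred on its own mean. For Slc2a9 they were Gpt, the alanine aminotransferase, at 0.19, the peptidase gene Dpp4 at 0.19 and Cd1d1, a lipid antigen presenter, at 0.20, where the median over all tested genes was 0.54. For Slc2a2 they were Trak1 at 0.12, Zcchc14 at 0.16 and Syne2 at 0.19, with a median of 0.51. For Slc45a3 the nearest gene was Gldc, a glycine-cleaving enzyme, at 0.38, with a median of 0.76. Fignl2 was nearest to Slc2a1 (0.33), Gria3 to Slc2a5 (0.31), Ift52 to Slc2a8 (0.12) and Cdip1 to Slc37a4 (0.30). No member was among the 3 nearest genes of another.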

How the data were processed

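Liver RNA of 15 mice (200 ng each) was made into stranded mRNA libraries and sequenced. The submitters' processing notes name cutadapt 1.14, HISAT2 2.1.0, HTSeq 0.12.4 and the build mm10, and the study's methods give GENCODE vM25 as the annotation and keep uniquely mapped reads. The deposited values are raw counts for 21702 genes in each library. Reads that map to several places were left out, which can lower genes with close copies.

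Libraries were matched to groups through labels and column names. The AAV8-p21 libraries at 16 dpc carry numbers in the table that do not all match the labels, so no number was given to these replicates. No 2 libraries of the same group agreed within sampling noise. Same-numbered libraries are different mice.

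Counts were tested with edgeR 4.0.16 in R 4.3.3, with TMM scaling, the filter of filterByExpr (minimum count 10, 12172 genes kept), 1 quasi-likelihood model of all 15 libraries with 5 group means (10 residual degrees of freedom). The common biological coefficient of variation was 0.277, and p-values were adjusted over all genes by Benjamini and Hochberg. Intervals are 95% intervals of that fit. Exact two-sided permutation tests used log2(CPM + 0.5). The 9 comparisons share control libraries. Alternatives were the size factors of DESeq2 1.42.0, total counts, no filter, at least 10 counts in every library, DESeq2's Wald test, limma 3.58.1 voom with sample weights, an added log2 limit of 1, the compared groups alone (for the interaction, the pregnant groups), a replicate block and each library left out. The clock measure as a covariate and the 12 numbered libraries without the block were added after seeing the data. With 1 library left out, a group of 2 shares the spread of the model.

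The tests were tried on simulated data with known changes before use.

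Positions and exon lengths come from GENCODE vM21 on GRCm38 (21588 of 21702 identifiers matched). Windows before transcript starts come from RefSeq (GRCm38.p6), where all 7 members were found. Figures were drawn with matplotlib 3.10.9.

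The named genes are the 7 members, genes of 7 pathway lists that passed the test or were the most abundant of their list, and the 3 genes nearest each member in pattern. The members and lists were chosen with earlier results of these data known. Protein sequences were not used here.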

Additional observations from a re-analysis of the deposited data

How the results depend on the processing

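Slc2a9 stayed called lower in null livers at 16 dpc than in NP livers and than at 8 dpc under each of 10 alternatives and without each library. For the other members 3 livers a group limit what can be told, and for Slc2a5 the low counts, 14 to 82 a library, limit it too. Of the log2 differences of members, 451 kept direction and call under the alternatives, 27 were newly called and 26 reversed. The cause of the reversals was not tested.

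With total counts in place of TMM the members called were 6 between NP and 16 dpc null livers, 5 between 8 dpc and 16 dpc null livers, 1 between 8 dpc and 16 dpc p21 livers, 1 between NP and 16 dpc p21 livers and 7 for any difference. Under this scaling the median log2 difference of all genes was -0.70, -0.70, -0.59 and -0.60 in the first 4 of these. It reversed, on the log2 scale, Slc45a3 (-0.13) and Slc37a4 (-0.67) between 8 and 16 dpc null livers, Slc2a1 (-0.32), Slc2a2 (-0.21) and Slc2a8 (-0.18) between 8 and 16 dpc p21 livers, and Slc2a5 (-0.055) and Slc2a8 (-0.38) between NP and 16 dpc p21 livers. All genes called were then 16 between the viruses at 16 dpc (9 in the model used here), 6150 (794), 6508 (836), 4317 (404), 4401 (464) and 6878 (1128) in the 5 comparisons above.

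DESeq2's Wald test called 2 members between the viruses at 16 dpc, 2 between NP and 16 dpc null livers and 3 for any difference. It called 142 genes between the viruses at 16 dpc, 31 at 8 dpc (3 in the model used here), 1211, 1374, 814, 812 and 2215 genes in the 5 comparisons, and 70 between NP and 8 dpc (0). Limma voom called 2 members between the viruses at 16 dpc, 4 between NP and 16 dpc null livers, 3 between NP and 8 dpc, 2 between 8 and 16 dpc p21 livers, 2 between NP and 16 dpc p21 livers and 5 for any difference. It called 117 and 105 genes between the viruses, 1602, 1707, 1817, 2317 and 5193 in the 5 comparisons and 1850 between NP and 8 dpc. Voom reversed Slc2a9 between the viruses at 8 dpc (0.0066), Slc2a1 between 8 and 16 dpc p21 livers (-0.0063), and Slc2a1 (0.10) and Slc2a5 (-0.10) between NP and 16 dpc p21 livers.

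Without the filter 21 genes were called between the viruses at 16 dpc. With at least 10 counts in every library 3 were called there and 0 at 8 dpc, and Slc37a4 reversed between 8 and 16 dpc null livers (-0.019). With the compared groups alone it reversed too (-0.015), and 5 genes were called between the viruses at either stage, 399 between NP and 16 dpc null livers, 338 between 8 and 16 dpc null livers and 290 between NP and 16 dpc p21 livers.

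With the clock measure as a covariate 2 members were called between NP and 16 dpc null livers and 2 for any difference, Slc2a1 and Slc2a9 in both, where 619 (5.09%) and 1033 (8.49%) of all genes were called, and 80 genes were called between 8 and 16 dpc p21 livers. It reversed Slc2a2 (-0.49) and Slc37a4 (-0.22) between the viruses at 16 dpc and Slc2a2 between NP and 16 dpc null livers (0.22). Between NP and 8 dpc it reversed Slc2a1 (-0.54), Slc2a2 (0.27), Slc2a5 (0.065) and Slc45a3 (-0.0035). It also reversed Slc2a2 (-0.42) and Slc45a3 (0.72) between 8 and 16 dpc p21 livers, Slc2a1 between NP and 16 dpc p21 livers (0.16), and Slc2a2 (-0.37) and Slc45a3 (0.21) in the interaction.

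Leaving out each library in turn gave 1 to 2 members called between NP and 16 dpc null livers and 1 to 3 for any difference, the highest without the first NP liver. All genes called ranged from 3 to 35 between the viruses at 16 dpc, 2 to 38 at 8 dpc, 373 to 734, 258 to 1279, 159 to 464, 200 to 482 and 759 to 1563 in the 5 comparisons and 0 to 92 between NP and 8 dpc. The log2 differences that changed sign ranged between NP and 8 dpc from -0.18 to 0.34 for Slc2a1, -0.61 to 0.047 for Slc2a5 and -0.22 to 0.011 for Slc2a9. Between 8 and 16 dpc null livers they ranged from -0.32 to 0.077 for Slc2a2 and -0.34 to 0.25 for Slc37a4. Between NP and 16 dpc p21 livers they ranged from -0.36 to 0.16 for Slc2a1, -0.48 to 0.091 for Slc2a2 and -0.63 to 0.029 for Slc45a3. Slc2a1 ranged from -0.084 to 0.67 between 8 and 16 dpc p21 livers and Slc2a9 from -0.22 to 0.0045 between the viruses at 8 dpc.

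The replicate block could be fitted on the 12 numbered libraries. Of 18 pairs of libraries with the same number 7 had deviations correlated over 0.1, and 3 of 12 libraries matched their own number best, so the numbers do not pair the mice. With the block 657 genes were called between NP and 16 dpc null livers (739 without it), 655 between 8 and 16 dpc null livers (754), 2 between the viruses at 8 dpc (2) and 0 between NP and 8 dpc (0). Slc2a9 was the member called with and without the block, and Slc37a4 reversed with it between 8 and 16 dpc null livers (-0.014).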

Other observations

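Among 14 regulators of sugar transport and sugar response, all tested, 2 were called between NP and 16 dpc null livers, both higher, where 6.52% of all genes were called. Sgk1, a kinase that acts on membrane carriers, was at 12.7, 27.2 and 23.0 CPM in NP livers and at 168, 213.6 and 263 CPM in null livers at 16 dpc. It rose by 3.36 on the log2 scale (SE 0.47, edgeR adjusted p = 0.000692). In p21 livers the values were 18.9, 13.6 and 11.5 CPM at 8 dpc and, later, 33.0, 82.3 and 47.6 CPM at 16 dpc, a rise of 1.89 (edgeR adjusted p = 0.031). The p21 livers at 16 dpc lay below the null livers of that stage without overlap, as 13.7% of all genes lay above or below. This difference was not called (edgeR adjusted p = 0.112), where 0.0739% of all genes were called. The study, which used DESeq2, reported lower Sgk1 in AAV8-p21 livers at that stage. Irs2, an adaptor of the insulin receptor, rose by 1.55 from NP to 16 dpc in null livers (edgeR adjusted p = 0.0355).

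Mlxipl, the carbohydrate response factor ChREBP, was at 156 CPM in null livers at 8 dpc and 41.6 CPM at 16 dpc, and was called lower (edgeR adjusted p = 0.0496). In p21 livers, which share no library with that comparison, it was at 207 and 47.8 CPM and was called lower (edgeR adjusted p = 0.0497). Of 7 tested genes of glucose phosphorylation and glucose release and 6 of fructose and polyol handling, 0 were called in any of the 9 comparisons by edgeR, where 0% to 9.27% of all genes were called. Khk, the fructose kinase, was at 244 CPM in NP livers and 115 CPM in null livers at 16 dpc (log2 difference -1.08, edgeR adjusted p = 0.213).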
